A study of Mus musculus with 6 samples.

Results

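The 9 genes described here encode molecular chaperones of the main heat shock protein families: the small heat shock protein gene Hspb1, the HSP70 genes Hspa8, Hspa5, Hspa1a and Hspa1b, the J-domain co-chaperone gene Dnaja1, the HSP90 genes Hsp90aa1 and Hsp90ab1, and the mitochondrial HSP60 gene Hspd1. The members were set by a list of Ensembl identifiers, with no measured value in the rule, although the list was drawn up with earlier results of these data known. All 9 had a row in the table of 16976 identifiers, and each had at least 1 count among the 13236 identifiers with any. The study sequenced RNA that was recovered with the RNA-binding protein LARP1 from dorsal root ganglia (DRG), which hold the cell bodies of peripheral sensory neurons, of mice with a sciatic nerve injury and of uninjured mice. There were 3 injured and 3 uninjured libraries, and all were from wild-type mice. The kind of injury, the time after it, and the age, sex and number of the animals are not given in the labels, and whether any library pooled animals is not stated. The table pairs no identifier with a symbol, so the marker genes of sensory neurons, glia, macrophages and other cells were not checked here.

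Chaperones bind unfolded or partly folded proteins and keep them from aggregating. Small heat shock proteins hold such proteins without using ATP, HSP70 binds and releases them in an ATP-driven cycle that J-domain proteins start, and HSP90 takes over many of them, kinases and steroid receptors among them, at a later stage. HSP60 forms a folding chamber in the mitochondrial matrix, and Hspa5 (BiP) is the HSP70 of the endoplasmic reticulum (ER). Many heat shock protein genes are known targets of heat shock factors, which bind inverted repeats of the letters GAA in promoters, while Hspa5 is a classic target of the unfolded protein response through the ER stress element. Hspb1 is known in sensory neurons for its rise after nerve injury and for its link to neuron survival. LARP1 is best known for holding mRNAs that begin with a tract of pyrimidines after a C.

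Promoter windows from RefSeq on build GRCm38.p6, each the 250 bases before an annotated start, were matched by symbol for 6 of the 9 genes. They are shown as background on the genes, and a link between their letters and the levels was not tested. Hspa8, Hsp90aa1 and Hsp90ab1 were not matched. The windows of Hspb1 (chr5:135887669-135887918, plus strand), Hspa5 (chr2:34771840-34772089, plus strand) and Hspa1a (chr17:34972157-34972406, minus strand) read as follows from 5′ to 3′. Capitals mark heat shock pairs (GAANNTTC or TTCNNGAA) in Hspb1 and Hspa1a, and the ER stress element (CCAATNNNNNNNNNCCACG) in Hspa5.
Hspb1: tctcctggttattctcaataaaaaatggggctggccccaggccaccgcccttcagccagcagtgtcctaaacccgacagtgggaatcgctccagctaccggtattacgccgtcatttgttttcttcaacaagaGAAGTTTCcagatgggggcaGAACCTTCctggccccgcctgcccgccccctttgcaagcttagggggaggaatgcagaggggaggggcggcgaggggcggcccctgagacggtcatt
Hspa5: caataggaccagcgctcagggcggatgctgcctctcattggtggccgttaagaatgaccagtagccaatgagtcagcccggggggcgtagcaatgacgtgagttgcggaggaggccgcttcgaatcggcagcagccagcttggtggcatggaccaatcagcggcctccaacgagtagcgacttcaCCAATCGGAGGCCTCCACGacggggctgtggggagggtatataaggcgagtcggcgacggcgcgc
Hspa1a: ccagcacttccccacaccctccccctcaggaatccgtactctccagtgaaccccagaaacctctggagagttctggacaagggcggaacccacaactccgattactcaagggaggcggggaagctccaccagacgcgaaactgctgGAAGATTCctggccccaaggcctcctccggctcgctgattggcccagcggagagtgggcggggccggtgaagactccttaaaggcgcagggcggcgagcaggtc

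Both strands were searched; each heat shock pair reads the same on either strand, and both kinds can overlap. In Hspb1 the 2 pairs ended 110 and 90 bases before the start, and in Hspa5 the ER stress element ended 47 bases before it. The Hspa1a pair ended 97 bases before the start, as did the pair of Hspa1b (chr17:34959239-34959488, minus strand). Over their windows Hspa1a and Hspa1b were 98.8% identical and differed by C44T, T47C and T249G, counted from 1 at the 5′ end with the Hspa1a base first. Upstream of its second annotated start Hspd1 had a run of 18 bases with 3 overlapping pairs, ending 127 bases before the start, in the stretch chr1:55088053-55088082 (minus strand), where capitals mark the run.
Hspd1: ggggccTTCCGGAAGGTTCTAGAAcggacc

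Its first window had no pair, and of 3 windows of Dnaja1 only the first had one, GAAAATTC, ending 117 bases before the start. A pair of either kind was present in 12.8% of all 32851 promoter windows of the table, and the ER stress element in 0.113%. The triple arrangement (GAANNTTCNNGAA or TTCNNGAANNTTC), found only in the second Hspd1 window among the 9 windows of the 6 genes, was present in 0.466%. A C followed by 4 pyrimidines at the annotated start is the pattern linked to LARP1. It was seen at 0 of these 9 starts and at 2.51% of all starts. Against so low a share, 0 of 9 says little, and Hspa8, Hsp90aa1 and Hsp90ab1 had no window. These matches describe the letters of the windows and not the binding of a factor.

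The libraries of a group agreed nearly within counting noise and were counted as 1 sample, so animals were not compared as replicates, and injury and any batch of preparation or sequencing cannot be told apart. Injured libraries held 211337 to 211879 counts and uninjured libraries 116186 to 116608. Among genes with 15 or more counts per group, library-to-library variance came to 1.12 times counting noise over 6152 genes in the injured group and 1.16 times over 3827 genes in the uninjured group. Levels are CPM, the usual scaling of counts to the column totals, summed by group, and every interval is an exact 95% interval that covers counting error only. Calls come from edgeR's quasi-likelihood test with Benjamini-Hochberg adjustment at 0.05 over 3158 genes, and they compare the reads of 2 samples, not the conditions. In this bulk precipitate, fewer cells of a type and less RNA per cell cannot be told apart, nor can the amount of an RNA in the tissue and its binding by LARP1.

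After injury, the RNAs of Hspb1 and Hspa5 were several-fold more abundant in the LARP1 precipitate, those of both cytosolic HSP90 genes and of Hspd1 were lower by less than 1.5-fold in CPM, and Hspa8 and Dnaja1 were not called. Hspb1 and Hspa5 were among the 24.9% of tested genes called higher, and Hsp90aa1, Hsp90ab1 and Hspd1 were among the 22.1% called lower, so that 47.0% of all tested genes were called in one direction or the other. Among the 7 tested chaperone RNAs, the libraries of the groups did not overlap for these same 5, as for 55.5% of all tested genes. By size, Hspb1 and Hspa5 passed 1.5-fold upward, as did 30.0% of tested genes, and by column totals none of the 7 tested chaperone RNAs passed it downward, against 21.0% of tested genes. That last count depends on the scaling, since Hsp90aa1 lay at the threshold: its log2 ratio was -0.51 by column totals, -0.58 with TMM library sizes and, past 1.5-fold, -0.60 by totals without the 10 most abundant genes. Hspa1a and Hspa1b had too few counts to be tested. Hspb1 and Hspa5 passed the filter on low counts only through the injured libraries, a route that favours genes with higher levels after injury. Counts over the 7 are therefore given as a record and not as support.

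**Figure D1:**
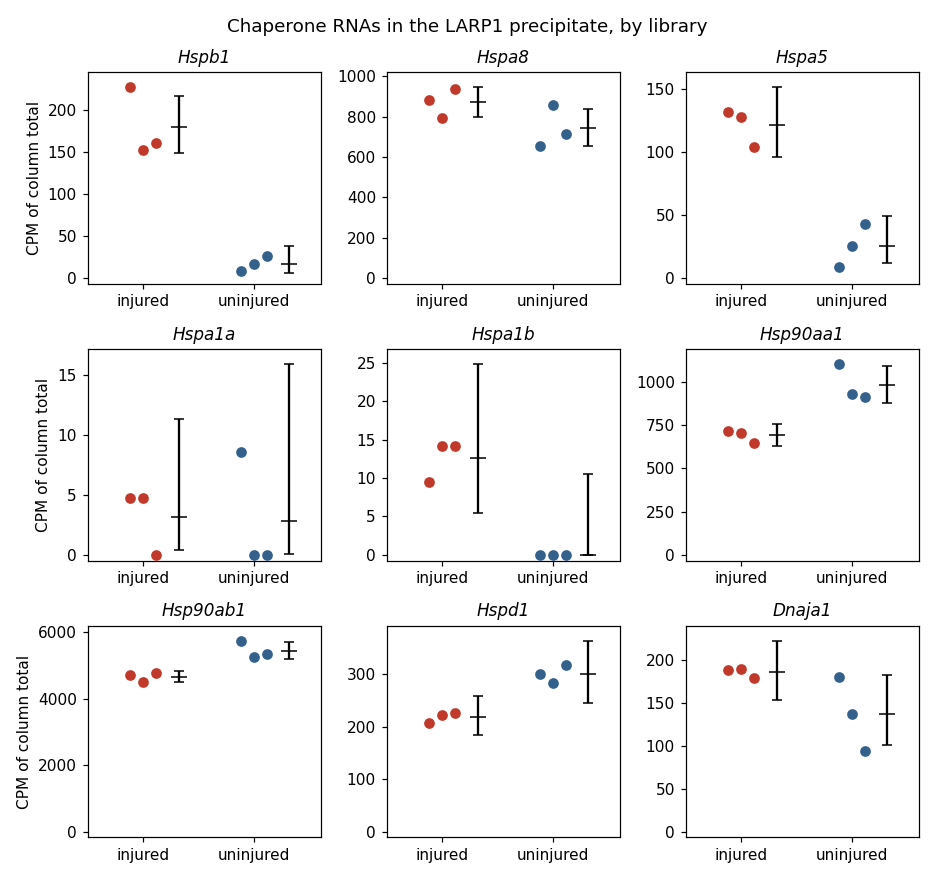
Level in CPM of the column total (vertical axes, each including 0) for the 9 chaperone RNAs in the 3 injured (red, left) and 3 uninjured (blue, right) libraries; the black bar is the level of the summed counts with its exact 95% Poisson interval. The injured libraries stand above the uninjured ones for Hspb1 and Hspa5 and below them for Hsp90aa1, Hsp90ab1 and Hspd1. They overlap for Hspa8 and Dnaja1. Close to the limit of detection, they stand above for Hspa1b and overlap for Hspa1a.

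Hspb1 (ENSMUSG00000004951) encodes HSP27, an ATP-independent chaperone that also binds actin and other cytoskeletal proteins. Its reads numbered 48, 32 and 34 in the injured libraries, against 1, 2 and 3 in the uninjured libraries. The lowest injured library, at 151 CPM, lay far above the highest uninjured one, at 25.8 CPM. Summed, its level was 179.6 CPM after injury (148 to 216) and 17.2 CPM without injury (6.31 to 37.4). The ratio was 10.4 (4.66 to 29.1), a log2 ratio of 3.39, and 1.46% of the tested genes had a ratio at least as high. In that ranking, genes with no uninjured count were given 3 counts in place of 0. This put some of them below Hspb1, so the 1.46% is a minimum. Leaving out 1 library at a time moved the ratio of Hspb1 between 8.36 and 13.9, and the width of its interval comes from the 6 uninjured counts. Hspb1 was called higher in 15 of the 16 other settings tried. Since it passed the filter on low counts only through the injured libraries, its rank and these calls are a record and not support.

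Hspa5 (ENSMUSG00000026864) encodes BiP, the ER chaperone that also holds the stress sensors of the unfolded protein response inactive. Injured libraries held 28, 27 and 22 counts of it, against 1, 3 and 5 in uninjured libraries. Again all injured libraries, from 104 to 132 CPM, were above all uninjured ones, from 8.60 to 43.0 CPM. Its summed level was 121 CPM after injury (95.8 to 152) and 25.8 CPM without injury (11.8 to 48.9), a ratio of 4.71 (2.35 to 10.7). A ratio at least as high was found for 4.59% of the tested genes. The third uninjured library held 5 of the 9 uninjured counts, and without it the ratio was 7.06; it was 3.53 without the first uninjured library. Hspa5 was called higher in 15 of the 16 other settings. Like Hspb1, it passed the filter on low counts only through the injured libraries, so its rank and these calls are a record and not support.

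Hspa8 (ENSMUSG00000015656) encodes HSC70, the constitutive cytosolic HSP70, which also uncoats clathrin vesicles and serves chaperone-mediated autophagy. Its counts were 187, 168 and 198 in the injured libraries, against 76, 100 and 83 in the uninjured libraries. The second uninjured library, at 858 CPM, reached into the range of the injured libraries, 795 to 937 CPM. The summed levels were 871 CPM after injury (800.3 to 947) and 742 CPM without injury (654 to 838), and the ratio of 1.17 (1.01 to 1.37) became 1.12 with the library sizes that edgeR's TMM scaling gives. edgeR did not call it, and among the 16 other settings only library totals without TMM factors called it higher. Ratios by column totals lay 0.07 above the scale of the edgeR fit in log2, which bears most on genes with small differences such as this one.

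Hspa1a (ENSMUSG00000091971) and Hspa1b (ENSMUSG00000090877) encode the stress-inducible cytosolic HSP70, and their near-identical sequences mean that estimated counts may be shared between them. Hspa1a had 1, 1 and 0 counts in the injured libraries, against 1, 0 and 0 in the uninjured ones. Hspa1b had 2, 3 and 3 counts in the injured libraries, against 0 in each uninjured library. Both were thus close to the limit of detection, since 3 counts correspond to 4.73 CPM in the summed injured and 8.60 CPM in the summed uninjured group. With 3 counts over the group in place of 0, Hspa1b was at least 1.47-fold higher after injury, but the exact lower limit of its ratio, which allows for counting error on both sides, was 0.939. For the pair summed, 10 injured counts against 1 uninjured count gave levels of 15.8 CPM (7.56 to 29.0) and 2.87 CPM (0.0725 to 16.0), and a ratio of 5.50 with an interval of 0.782 to 239. The only uninjured count lay in the first library. Without that library, and with 3 counts over the group in place of 0, the ratio of the pair was 1.22. That value makes no allowance for counting error on the injured side. Without the second uninjured library the log2 ratio of the pair, 2.46, was 1.87. For Hspa1b alone, leaving out any uninjured library brought the bound of 1.47 below 1. That follows from the scaling, since each held 0 counts and 3 counts stand for a higher level in fewer libraries. The libraries of the groups did not overlap for Hspa1b or for the pair, but a difference of the inducible HSP70 RNAs was not resolved at this depth.

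Dnaja1 (ENSMUSG00000028410) encodes a J-domain protein that stimulates the ATPase of HSC70 and delivers proteins to it. Its 3 injured libraries held 40, 40 and 38 counts, against 21, 16 and 11 in the 3 uninjured libraries. The first uninjured library, at 181 CPM, was as high as the lowest injured one, at 179.8 CPM, while the third was at 94.7 CPM. Its summed level was 186 CPM after injury (154 to 223) and 138 CPM without injury (101 to 182), and the interval of the ratio, 1.35 (0.959 to 1.93), included 1. None of the 16 other settings called it.

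Hsp90ab1 (ENSMUSG00000023944), the constitutive cytosolic HSP90, is the best measured of the 9 genes. Counts were 999, 952 and 1007 in the injured libraries, against 667, 613 and 620 in the uninjured libraries. The injured libraries lay between 4505 and 4764 CPM and the uninjured ones between 5257 and 5738 CPM, with no overlap. Summed, the level was 4661 CPM after injury (4495 to 4832) and 5444 CPM without injury (5202 to 5694). The ratio of 0.856 (0.808 to 0.908) is a small one, and 35.0% of the tested genes had a ratio as low or lower; it was 0.814 with TMM library sizes. At this depth even small differences are called: of the 230 tested genes with a mean of at least 100 counts per library, 79.1% were called, among them Hsp90ab1 and Hsp90aa1 but not Hspa8.

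Hsp90aa1 (ENSMUSG00000021270) encodes the stress-inducible cytosolic HSP90. Its counts were 151, 149 and 137 in the injured libraries, against 128, 108 and 106 in the uninjured libraries. In CPM, the injured libraries, from 648 to 713, were all below the uninjured ones, from 912 to 1101. The summed levels were 689 CPM after injury (626 to 756) and 979.9 CPM without injury (879 to 1089), a ratio of 0.703 (0.609 to 0.812), or 0.668 with TMM library sizes. A ratio as low or lower was found for 23.6% of tested genes. Its fitted log2 fold change of -0.58 ranged from -0.64 without the third uninjured library to -0.47 without a filter on low counts, on both sides of 1.5-fold. Both HSP90 RNAs were called lower in 14 of the 16 other settings.

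Hspd1 (ENSMUSG00000025980) encodes HSP60, which folds proteins imported into mitochondria. The injured libraries held 44, 47 and 48 counts, against 35, 33 and 37 in the uninjured libraries. The highest injured library, at 227 CPM, was below the lowest uninjured one, at 283 CPM. The summed level was 219 CPM after injury (184 to 259) and 301 CPM without injury (246 to 364), a ratio of 0.728 (0.561 to 0.947). Its call as lower was lost in 8 of the 16 other settings, although the direction stayed. The fitted log2 fold change of -0.53 was -0.43 without the first injured library and -0.50 without the third uninjured library, and it was not called in either case.

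**Figure D2:**
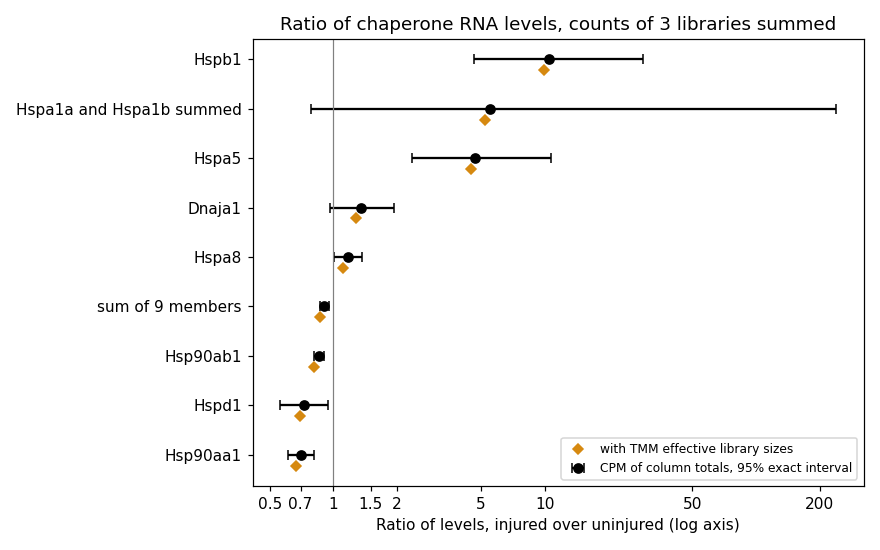
Ratio of levels, injured over uninjured, on a log axis; black points are CPM of column totals with exact 95% intervals and orange diamonds the same ratio with TMM library sizes. The ratios run from 10.4 for Hspb1 to 0.703 for Hsp90aa1, and the intervals of Dnaja1 and of the pair Hspa1a and Hspa1b include 1.

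A wider spread than that between libraries, such as would be met between animals, was not measured. In a setting chosen after the data were seen, each group was summed to 1 sample and edgeR's exact test was run with an assumed coefficient of variation. With 0.2, Hspb1 and Hspa5 were called higher and no chaperone RNA was called lower. Since both passed the filter on low counts only through the injured libraries, these calls too are a record and not support. With 0.4, none of the 7 was called.

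**Figure D3:**
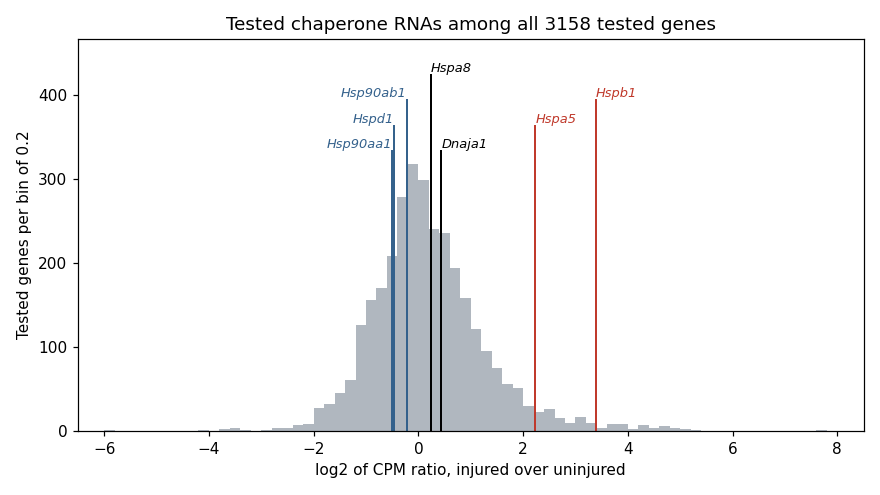
Distribution of the log2 ratio of CPM, injured over uninjured, over the 3158 tested genes in bins of 0.2 (grey), with the 7 tested chaperone RNAs as lines (red called higher, blue called lower, black not called). Genes with no uninjured count were given 3 counts in place of 0. Hspb1 and Hspa5 lie in the upper tail, while the other lines lie between -0.51 and 0.44, within or near the middle of the distribution, whose quartiles are -0.46 and 0.74.

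As a family, the chaperone RNAs took a slightly smaller share of the precipitate after injury, and without Hsp90ab1 no difference was resolved. The 9 genes held 0.694% of the injured counts (0.674% to 0.715%) and 0.765% of the uninjured counts (0.736% to 0.794%), a ratio of 0.908 (0.865 to 0.953). Without Hsp90ab1 the summed level of the other 8 was 2282 CPM after injury (2166 to 2402) and 2206 CPM without injury (2053 to 2368), and the interval of their ratio, 1.03 (0.947 to 1.13), included 1; with TMM library sizes the ratio was 0.983, on the other side of 1.

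Within the 9 genes the make-up of the reads differed between the groups. Hspb1 took 2.59% of the chaperone counts after injury (2.14% to 3.10%) and 0.225% without injury (0.0825% to 0.488%). Hspa5 took 1.75% after injury (1.38% to 2.18%) and 0.337% without injury (0.154% to 0.639%). The share of Hsp90ab1 was 67.1% after injury (65.7% to 68.5%) and 71.2% without injury (69.4% to 72.9%), and that of Hsp90aa1 was 9.92% (9.05% to 10.8%) and 12.8% (11.6% to 14.1%). Hspa8 had the opposite pattern, with 12.6% after injury (11.6% to 13.6%) and 9.70% without injury (8.60% to 10.9%). Shares depend on one another, so a lower share of Hsp90ab1 raises the others, and the level of Hspa8 itself was not called. These are shares of reads and not levels per transcript length.

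The quotient of the counts of 2 genes in the same libraries does not depend on how libraries are scaled, and 9 such quotients were compared between the groups, chosen after the data were seen and with intervals not adjusted for their number. There were 0.148 Hsp90aa1 reads per Hsp90ab1 read after injury and 0.180 without injury, so the inducible HSP90 RNA was lower relative to the constitutive one by a factor of 0.821 (0.703 to 0.959). Per Hspa8 read, the injured quotient over the uninjured one was 0.598 for Hsp90aa1 (0.485 to 0.738), 0.729 for Hsp90ab1 (0.620 to 0.856) and 0.620 for Hspd1 (0.458 to 0.841). The HSP90 and HSP60 RNAs were thus lower relative to the constitutive HSP70 RNA, whichever scaling of the libraries is used. The co-chaperone RNA Dnaja1 and its partner Hspa8 gave 1.15 (0.789 to 1.70), an interval that includes 1. Between the ER and the mitochondrial chaperone, of which the first was called higher and the second lower, there were 0.554 Hspa5 reads per Hspd1 read after injury and 0.0857 without injury, a factor of 6.46 (3.03 to 15.3). Per Hspa8 read, Hspa5 was higher by a factor of 4.01 (1.96 to 9.23) and Hspb1 by a factor of 8.90 (3.89 to 25.0). Whether Hspb1 differed more than Hspa5 was not resolved, at a factor of 2.22 (0.672 to 7.88).

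**Figure D4:**
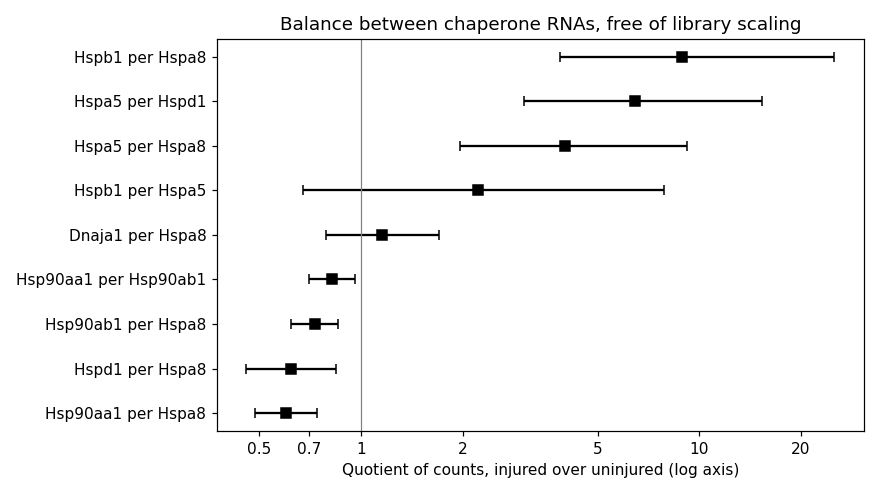
Quotient of the counts of 2 chaperone RNAs after injury divided by the same quotient without injury, on a log axis, with exact conditional 95% intervals. The factors run from 0.598 for Hsp90aa1 per Hspa8 to 8.90 for Hspb1 per Hspa8, and the intervals of Dnaja1 per Hspa8 and of Hspb1 per Hspa5 include 1.

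Set beside the promoter letters shown above, a heat shock pair was present in genes on both sides: in Hspb1, which was higher after injury, upstream of 1 of 2 starts of Hspd1, which was lower, and in Hspa1a, Hspa1b and Dnaja1, which were not called or not tested. Hspa5, the other gene called higher, had no heat shock pair in its window and carried the ER stress element. Hspa8, Hsp90aa1 and Hsp90ab1 had no window. Of the genes called lower only Hspd1 could thus be looked at, and its call was lost in 8 of the 16 other settings. A link between these letters and the levels was not tested.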

How the data were processed

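Per the labels, LARP1 was immunoprecipitated from lysates of fresh DRG, RNA was column-purified, and nanopore libraries were made with a PCR-based cDNA barcoding kit. The table the authors deposited holds raw estimated counts for Ensembl genes; the submitters' processing notes name minimap2, Salmon and builds GRCm39 and mm39. Not given in the sources used here were versions, annotation and filters. All values were whole, so rounding changed none. No molecular identifiers were used here.

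Libraries were matched by name to sample titles. Counts were summed per group; CPM have exact Poisson intervals, ratios exact Clopper-Pearson intervals, and quotients exact conditional intervals (scipy 1.17.1). edgeR 4.0.16 (R 4.3.3) ran on all 6 libraries with filterByExpr, TMM factors and library sizes over the tested genes, after it was tested on simulated data. The 16 other settings covered limma-voom (limma 3.58.1) and DESeq2 1.42.0, changed size factors and filters, thinned injured libraries, a replicate term, each library left out, and 2 assumed spreads. All 9 genes are named by rule. Genes and lists were chosen with earlier results of these data known. The 8 further chaperone lists and 9 marker lists were not analysed here, since they need symbols and the gene table used here (GRCm38.p6) pairs 0 Ensembl identifiers. The GRCm38.p6 promoter coordinates are those of the sequence table.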

Additional observations from a re-analysis of the deposited data

How the results depend on the processing

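Against 2 chaperone RNAs called higher and 3 called lower, 14 of the 16 other settings called 2 to 3 higher and 2 to 3 lower. The genes were not always the same. Hspd1 lost its call as lower in 8 of the 16 settings, and library totals without TMM factors added Hspa8 as higher. Leaving out 1 library at a time gave 2 chaperone RNAs called higher and 2 to 3 called lower, and over all genes 638 to 836 higher and 582 to 756 lower, against 786 and 699 with all 6 libraries. The exceptions were the assumed spreads, chosen after the data were seen: 305 genes were higher and 176 lower with a coefficient of variation of 0.2, where 0 chaperone RNAs were called lower, and 42 and 5 with 0.4, where 0 were called in either direction. With library totals in place of TMM, 927 genes were called higher and 610 lower, and with limma-voom 665 and 729. The log2 ratio of the summed level of the 9 genes, -0.14, was -0.21 with DESeq2 size factors, -0.21 with TMM library sizes and -0.23 by totals without the 10 most abundant genes, and -0.16 to -0.11 with 1 library left out. With the replicate block, 750 genes were called higher and 677 lower, with 2 and 3 chaperone RNAs among them. Between injured and uninjured libraries of 1 number, deviations from the group mean had correlations of 0.03, 0.00301 and -0.0435 across 2976 genes. These deviations were nearly all counting noise, so the correlations cannot decide whether libraries of 1 number belong together. The fitted fold changes of the 7 tested chaperone RNAs kept their direction in every one of the 16 settings. With the injured libraries thinned, Hspa1a had no injured count and gave no ratio. The depth limits Hspa1a and Hspa1b most, then the uninjured levels of Hspb1 and Hspa5, which rest on 6 and 9 counts. The further chaperone lists were not run.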
